A study of Macaca mulatta with 18 samples.

Results

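The genes described here are 9 markers of astrocytes: GFAP, AQP4, SLC1A2, GLUL, SPARCL1, ALDH1L1, GJA1, S100B and APOE. They were taken by name, and their Ensembl identifiers were matched to macaque symbols. Of the 9, 8 had a row among the 22345 genes of the RNA table, and 7 passed a filter on low values that left 13460 genes to test. ALDH1L1 was below that filter, and S100B is not analysed here. The RNA came from wild-type rhesus macaque fetal brain at embryonic day 84, from tissue labelled either GZ or CP. Each had 3 RNA-seq libraries, all 6 of the same genotype and stage, with no treatment or transgene named. Neither abbreviation is written out in the labels, and whether a library stands for an animal of its own is not stated. P-values are therefore measured against library-to-library spread, part of which may be technical.

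Astrocytes are the glial cells that clear glutamate from synapses, move water and potassium, wrap blood vessels with endfeet, and secrete lipoproteins and factors that act on synapses. In the cerebral cortex they arise from radial glia, the neural stem cells, mostly after these have made neurons. Radial glia already express several genes that serve as astrocyte markers later, so a marker level in fetal tissue does not by itself count astrocytes. In bulk tissue, fewer cells of a type and less RNA per cell cannot be told apart.

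Values are log2 FPKM (fragments per kilobase of transcript, scaled to library size) after conditional quantile normalization by the authors, so levels can be set side by side between genes. Library medians over all genes ran from 1.82 to 1.87, and the read depth is unknown because the values carry no read totals. As a check of the tissue, 6 of 7 tested neuron markers were called (as defined below) for CP, where the share over all tested genes was 20.9%. Of 3 tested intermediate progenitor markers, 2 were called for GZ, where that share was 24.5%. The progenitor count was 1 without CP replicate 2 or 3 or GZ replicate 1 or 3, so it is a weak check of GZ. Differences below are CP minus GZ on the log2 scale, with the limma standard error, 95% interval and Benjamini-Hochberg adjusted p over all 13460 genes. A gene is called at an adjusted p under 0.05. The median difference over all tested genes was -0.05.

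The astrocyte markers differed between CP and GZ in both directions. SPARCL1 was higher in CP, GLUL was higher in GZ, and the other 5 tested markers were not called. The share of all tested genes called was 45.4% in either direction, 20.9% for higher in CP and 24.5% for higher in GZ. Calls among the markers, 1 of 7 in each direction, were thus no more frequent than over all genes. The median difference over the 7 was 0.28. The summed FPKM of the 8 measured markers was 451 to 661 in CP and 435 to 527 in GZ, so the tissues overlapped in this sum, to which APOE adds the most. The median log2 level of the 8 was 5.84, 5.46 and 5.78 in CP libraries 1, 2 and 3 and 5.13, 4.98 and 5.37 in GZ libraries 1, 2 and 3. These medians did not overlap, and each rests on the markers in the middle of the order.

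**Figure D1:**
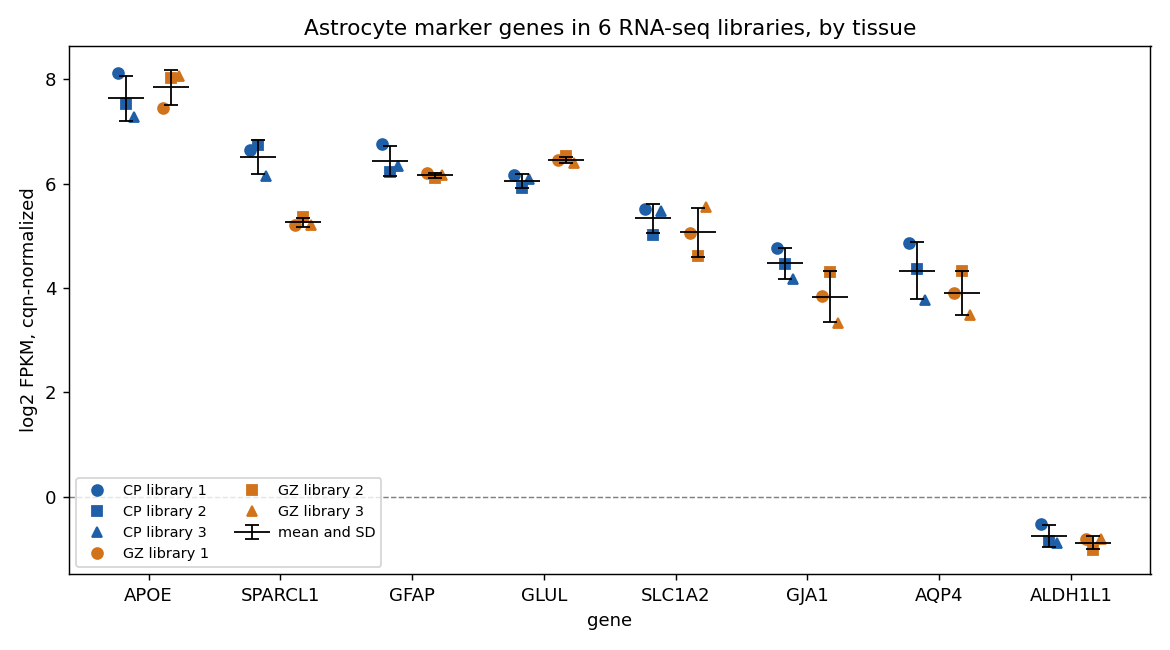
Levels of the 8 measured astrocyte markers in each library (y axis, log2 FPKM; x axis, genes ordered by their CP mean). Blue and orange symbols are CP and GZ libraries, bars are the mean and SD of 3 libraries, and the dashed line at 0 marks the filter on the mean of a gene. SPARCL1 and, by a narrow gap, GFAP lie higher in every CP library and GLUL in every GZ library, while ALDH1L1 is below 0 in all 6.

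APOE, which codes for the main apolipoprotein of brain lipid transport, had the highest level of the markers in both tissues. Its CP mean of 7.64 ± 0.43 and its GZ mean of 7.84 ± 0.34 (SD, n = 3) lay above 98.8% and 99.0% of genes in the table. In CP the order went on with SPARCL1 (6.51 ± 0.32), GFAP (6.43 ± 0.28), GLUL (6.06 ± 0.13), SLC1A2 (5.33 ± 0.28), GJA1 (4.47 ± 0.30) and AQP4 (4.33 ± 0.55). In GZ it was GLUL (6.45 ± 0.06), GFAP (6.16 ± 0.04), SPARCL1 (5.25 ± 0.08), SLC1A2 (5.07 ± 0.47), AQP4 (3.91 ± 0.42) and GJA1 (3.83 ± 0.49). Neighbours whose means lay closer than the sum of their SDs were SPARCL1 and GFAP, GFAP and GLUL, and GJA1 and AQP4 in CP. In GZ these were SPARCL1 and SLC1A2, and AQP4 and GJA1. SPARCL1 thus ranked 2 in CP and 4 in GZ, and GLUL ranked 4 in CP and 2 in GZ.

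ALDH1L1, a folate enzyme used as a marker of the whole astrocyte population, stood far below the others. Its values were -0.52, -0.85 and -0.89 in CP libraries 1, 2 and 3 and -0.81, -1.02 and -0.80 in GZ libraries 1, 2 and 3. The tissues overlapped, and the means corresponded to 0.594 FPKM in CP and 0.544 in GZ. The gap from AQP4 to ALDH1L1 in CP was 5.08 on the log2 scale. Without the filter on low values ALDH1L1 differed by 0.13 (limma adjusted p = 0.716). Of the 34 measured genes of a list of further astrocyte genes, 29 passed the filter, against 13460 of all 22345 genes. The 5 below it were GJB6, SLC14A1, SLC39A12, ETNPPL and NTSR2. GJB6, the connexin 30 gene, had means of -1.02 in CP and -0.57 in GZ.

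Among the secreted products, SPARCL1 showed the largest difference of the markers. The gene codes for a matrix protein related to SPARC (hevin) that astrocytes secrete at forming synapses and that endothelial cells also make. SPARCL1 was 6.65, 6.73 and 6.14 in CP libraries 1, 2 and 3 and 5.21, 5.35 and 5.20 in GZ libraries 1, 2 and 3. All CP values lay above all GZ values, as they did for 25.5% of tested genes. The difference was 1.25 ± 0.15 (SE, interval 0.91 to 1.60, limma adjusted p = 5.94e-04), or 2.38-fold. SPARCL1 was called higher in CP under all 17 other settings tried, with differences from 1.14 to 1.44.

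Vessel and neuron markers were also higher in CP. All 7 tested endothelium markers and all 5 tested pericyte markers were called, with medians of 1.63 and 1.27. Of all tested genes, 20.9% were called higher in CP. Leaving out CP replicate 1 or 3 or GZ replicate 1 left 3 pericyte calls. The summed FPKM of the endothelium markers was 85.0 to 132 in CP and 21.95 to 44.8 in GZ. All 7 measured endothelium markers and all 5 measured pericyte markers had passed the filter on low values. The neuron markers summed to 1424 to 1484 in CP and 797 to 945 in GZ. Within CP, SPARCL1 was lowest in library 3, where the summed endothelium markers were highest. Within GZ, SPARCL1 was highest in library 2, where they were lowest. The summed neuron markers were lowest of CP and of GZ in library 2, where SPARCL1 was highest of each tissue. The part of these cells in the SPARCL1 difference was not tested.

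Other genes of the SPARC family and of secreted or adhesive synapse factors were called about as often as all tested genes, 46.7% against 45.4%. Of 15 tested, 4 were called higher in CP, against 3 in GZ, with a median difference of 0.26, and without GZ replicate 3 the CP count was 8. The synaptic adhesion gene NLGN1 was 2.83-fold higher in CP (SE of the log2 difference 0.12, limma adjusted p = 1.02e-04). SPOCK2, a SPARC relative, was 2.43-fold higher in CP. SMOC1, another SPARC relative, was 2.15-fold higher in GZ, and GPC4, a glypican that astrocytes secrete at synapses, was 2.31-fold higher in GZ (-1.21 ± 0.21 SE).

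APOE showed wide spread within each tissue and no call. It was 8.12, 7.52 and 7.28 in CP libraries 1, 2 and 3 and 7.45, 8.02 and 8.05 in GZ libraries 1, 2 and 3. CP library 1 was the highest of all and GZ library 1 the lowest of GZ, so the libraries numbered 1 ran against the others. The difference was -0.20 ± 0.23 (interval -0.74 to 0.33, limma adjusted p = 0.508). Without both libraries numbered 1 it was -0.64 and APOE was called higher in GZ (limma adjusted p = 0.017), and without both libraries numbered 3 it was 0.08 (limma adjusted p = 0.823).

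The 4 measured microglia markers were likewise highest of CP and lowest of GZ in the libraries numbered 1. Microglia are the brain's resident macrophages and make APOE as well. TREM2, a microglial lipid receptor, was 4.26, 3.62 and 3.34 in CP libraries 1, 2 and 3 and 3.06, 4.40 and 4.37 in GZ libraries 1, 2 and 3. Of 9 microglia markers 4 were tested, and in limma 0 were called and 0 had an unadjusted p under 0.05. The called share over all tested genes was 45.4%. Without both libraries numbered 1, 2 of the 4 were called higher in GZ, against 1647 of all 13460 tested genes under that setting. The summed FPKM of the 4 microglia markers was 61.7 to 94.9 in CP and 48.0 to 84.6 in GZ, and all 4 had passed the filter on low values. The part of microglia in the APOE values was not tested.

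Likeness of profiles was measured as the distance between 2 genes over the 6 libraries after subtracting each gene's mean. All genes share these libraries and their normalization, and the distances carry no test. The genes most like APOE were KCNJ10, an astrocyte potassium channel gene, LAIR1, an inhibitory receptor of immune cells, and ITGB2, a leukocyte integrin chain, at distances of 0.138, 0.138 and 0.165. Of all tested genes, 1.15% lay closer to APOE than the microglia marker CSF1R, 2.15% closer than TYROBP, 3.64% closer than TREM2 and 7.56% closer than C1QC. The median over these 4 was 2.89%. The 5 tested markers of the oligodendrocyte lineage had a like median of 3.25%, with a range from 1.23% to 90.6%, so closeness to APOE was not particular to microglia markers. The endothelium markers lay far from APOE, with a median of 97.1% of genes closer.

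**Figure D2:**
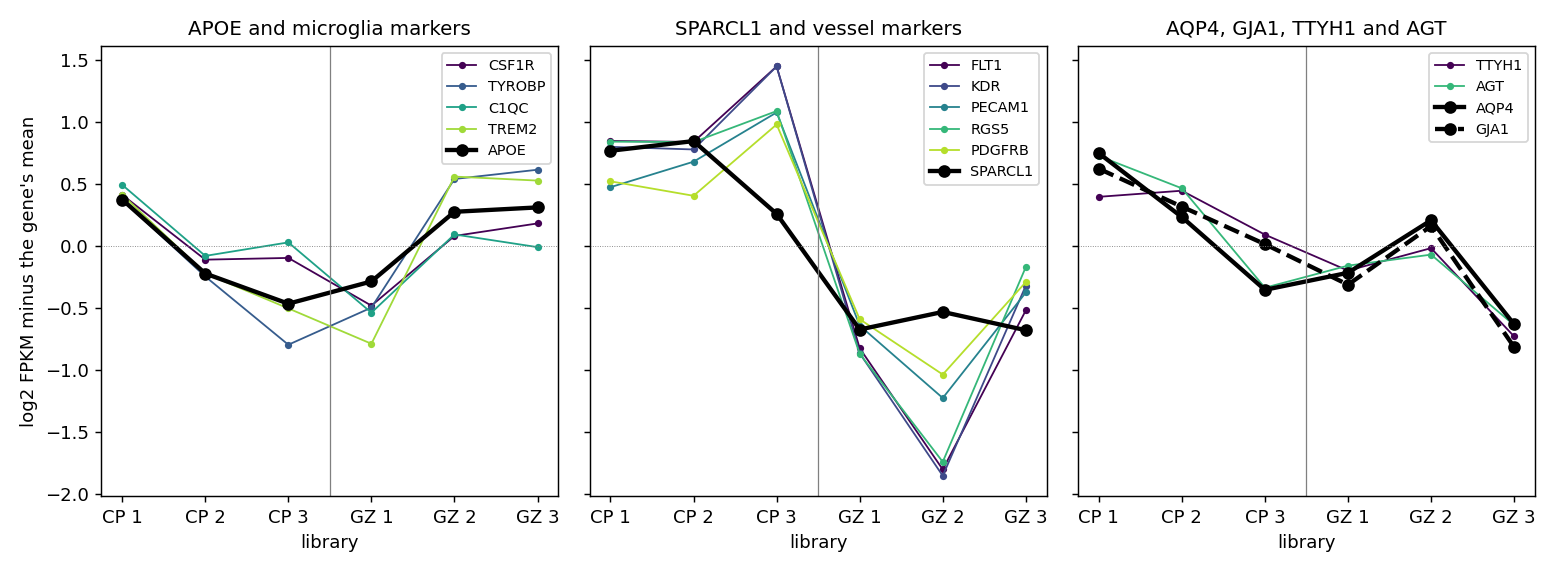
Profiles over the 6 libraries (x axis) as log2 FPKM minus the mean of each gene (y axis), with markers of the report in black and other genes in colour. Lines join libraries only to guide the eye. APOE and 4 microglia markers are highest of the CP libraries in library 1 and lowest of the GZ libraries in library 1, SPARCL1 and 5 vessel markers are separated by tissue, and AQP4 and GJA1 run close together.

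Lipoprotein and cholesterol handling, the pathway of APOE, was called in both directions. Of 14 genes tested, 6 were called higher in GZ, against 2 in CP, with a median difference of -0.12. Calls in either direction made up 57.1% of them, against 45.4% of all tested genes. LRP1, a receptor that takes up APOE particles, was 1.44-fold higher in GZ (-0.53 ± 0.09 SE) and was chosen after its values were seen. The sterol exporter gene ABCG1 was 2.12-fold and the reelin and APOE receptor gene LRP8 2.05-fold higher in GZ. In CP, the lipoprotein receptor genes SCARB1 and VLDLR were 1.67-fold and 1.55-fold higher. The GZ count was 3 without CP replicate 2, without GZ replicate 1 or without both libraries numbered 1, and the CP count was 1 without CP replicate 2 or GZ replicate 2. LRP8 was not called without CP replicate 2 (-0.78) or GZ replicate 1 (-1.06), nor was VLDLR when CP replicate 2 (0.52) or 3 (0.65) or GZ replicate 2 (0.46) was left out.

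In the glutamate pathway, GLUL was the other called marker. It codes for glutamine synthetase, which turns the glutamate taken up by astrocytes into glutamine. GLUL was 6.17, 5.91 and 6.09 in CP libraries 1, 2 and 3 and 6.44, 6.52 and 6.40 in GZ libraries 1, 2 and 3. All GZ values lay above all CP values, as they did for 30.9% of tested genes. The difference was -0.40 ± 0.09 (SE, interval -0.59 to -0.20, limma adjusted p = 0.00737), or 1.32-fold. GLUL was called higher in GZ under all 17 other settings, with adjusted p from 0.0060 to 0.049. The radial glia markers summed to 524 to 710 FPKM in CP and 535 to 636 in GZ, a sum to which the highest genes add the most. Of 7 tested, 2 were called higher in GZ and 1 in CP, against 24.5% and 20.9% of all tested genes. The part of radial glia in the GLUL difference was not tested.

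SLC1A2, the gene of the main glutamate transporter of mature astrocytes (GLT-1), was not called. It was 5.51, 5.01 and 5.48 in CP libraries 1, 2 and 3 and 5.05, 4.61 and 5.54 in GZ libraries 1, 2 and 3. GZ library 3 was the highest of all, so the tissues overlapped. The difference was 0.27 ± 0.23 (interval -0.27 to 0.81, limma adjusted p = 0.387), and it was 0.51 without GZ replicate 3 (limma adjusted p = 0.060) and 0.04 without GZ replicate 2. SLC1A3, the glutamate transporter gene that radial glia and astrocytes share, had higher means than SLC1A2, 6.92 ± 0.33 in CP and 6.74 ± 0.11 in GZ (adjusted p = 0.40).

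Of 20 other genes of the glutamate and glutamine cycle, 9 were called higher in CP, against 5 in GZ. The median difference was 0.17, and 70% were called in either direction, against 45.4% of all tested genes. The glutamine transporter genes SLC38A5 and SLC38A3 were 3.30-fold and 2.59-fold higher in CP (1.72 ± 0.24 and 1.37 ± 0.14 SE). ASNS, which codes for asparagine synthetase, a glutamine-using enzyme, was 2.49-fold higher in CP. GAD2, which makes GABA from glutamate in interneurons, was 4.00-fold higher in GZ (limma adjusted p = 3.68e-04). The GZ count was 3 without CP replicate 2 or GZ replicate 3, and the CP count was 5 without both libraries numbered 1.

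GFAP, the intermediate filament gene of astrocytes, had a high level with a small difference. It was 6.75, 6.21 and 6.34 in CP libraries 1, 2 and 3 and 6.19, 6.11 and 6.17 in GZ libraries 1, 2 and 3. All CP values lay above all GZ values, as for 25.5% of tested genes, but by a narrow gap, and the 3 GZ values nearly coincided. Geometric means were 86.4 FPKM in CP and 71.4 in GZ, above 96.0% and 94.5% of genes. The difference was 0.28 ± 0.13 (interval -0.03 to 0.58, limma adjusted p = 0.125), and it was 0.12 without CP replicate 1 (limma adjusted p = 0.309).

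The filament genes listed with GFAP went both ways. Of 5 tested, 1 was higher in CP and 2 were higher in GZ, against 20.9% and 24.5% of all tested genes. VIM, the vimentin gene of radial glia and astrocytes, was 6.98 ± 0.14 in CP and 6.78 ± 0.00251 in GZ (SD, adjusted p = 0.084). NES, the nestin gene of neural stem cells, was 1.48-fold higher in GZ (-0.56 ± 0.18 SE, adjusted p = 0.036) and SYNM 1.49-fold higher in CP. LMNB1, a nuclear lamin gene, was 2.16-fold higher in GZ. The NES call was lost without CP replicate 2 or 3 or GZ replicate 1 or 2 (limma adjusted p up to 0.10), and the SYNM call without CP replicate 1 or 3 or GZ replicate 1 or 2 (limma adjusted p up to 0.072).

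AQP4 and GJA1, which act at endfeet and in the coupling of astrocytes, shared a pattern over the libraries. AQP4 codes for the water channel of endfeet. It was 4.87, 4.35 and 3.77 in CP libraries 1, 2 and 3 and 3.90, 4.33 and 3.49 in GZ libraries 1, 2 and 3. The tissues overlapped, and the difference was 0.42 ± 0.30 (interval -0.26 to 1.11, limma adjusted p = 0.281), with values from 0.15 to 0.70 over the other settings.

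GJA1, the gene of the gap junction protein connexin 43, was 4.77, 4.47 and 4.16 in CP libraries 1, 2 and 3. In GZ libraries 1, 2 and 3 it was 3.84, 4.31 and 3.33. GZ library 2 lay above CP library 3, so the tissues overlapped. The difference was 0.64 ± 0.25 (interval 0.06 to 1.22, limma adjusted p = 0.069). GJA1 was called higher in CP without GZ replicate 2 (0.88, limma adjusted p = 0.017), without both libraries numbered 2 (0.88, limma adjusted p = 0.043) and with a replicate block (limma adjusted p = 0.022).

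The distance between AQP4 and GJA1 was 0.451. Of the tested genes, 7 lay closer to AQP4 than GJA1 did, and 17 lay closer to GJA1 than AQP4 did. For the other marker pairs, counted from either gene, at least 3.95% of tested genes lay closer. The genes most like AQP4 were AGT, which codes for angiotensinogen, a product of astrocytes, DNAH6, a dynein gene of motile cilia, and FANK1. Those most like GJA1 were TTYH1, a tweety family gene of the further astrocyte list, EPHX2, a lipid epoxide hydrolase gene, and HBA, an alpha-globin gene. TTYH1 was 1.54-fold higher in CP (0.63 ± 0.18 SE, limma adjusted p = 0.0248), and AGT was not called (adjusted p = 0.181).

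**Figure D3:**
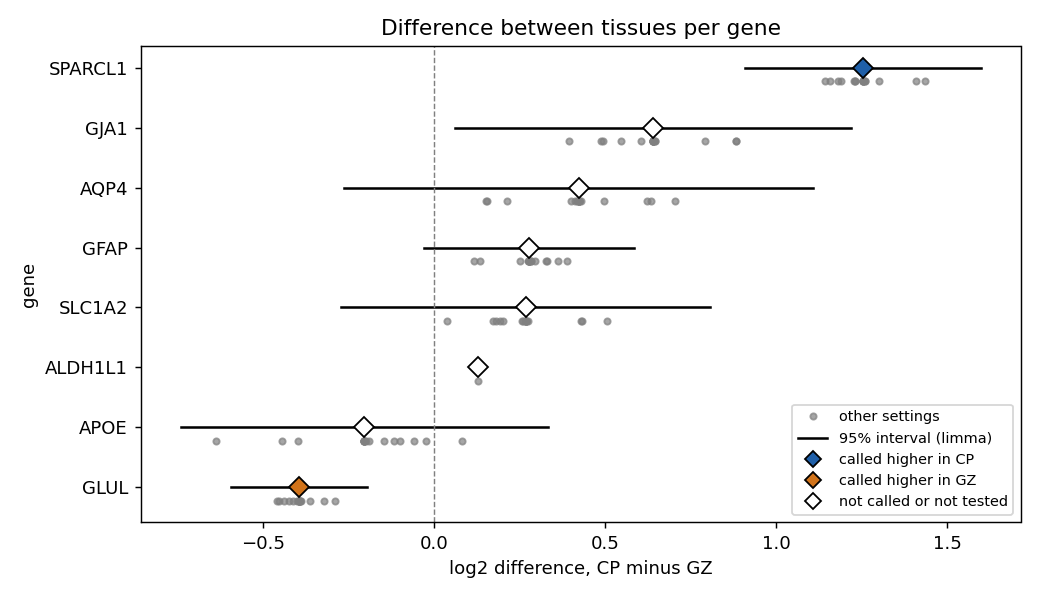
Difference of each marker between tissues (x axis, log2 CP minus GZ) with its 95% limma interval, and, as grey points below it, the values under the other settings. Filled diamonds are called genes. The SPARCL1 interval lies above 0 and the GLUL interval below it, and the points of APOE lie on both sides of 0.

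Of 11 tested genes that form or anchor the endfoot and its junctions, 5 were called higher in CP, against 0 in GZ. In limma 0 were higher in GZ also at an unadjusted p under 0.05, and the median difference was 0.32. Over all tested genes, 20.9% were called higher in CP and 24.5% higher in GZ. GJB6 and TRPV4 of this list were below the filter and not tested. Their 3 GZ values all lay above their 3 CP values. This was so for 30.9% of tested genes, a share that leaves out genes below the filter, such as these. The median difference over all genes was -0.21 without the filter and -0.05 with it. DTNA, the gene of the anchoring protein alpha-dystrobrevin, was 2.34-fold higher in CP (1.23 ± 0.10 SE). SLC2A1, the glucose transporter gene of vessel endothelium and glia, was 1.89-fold and TJP1, a junction scaffold gene, 1.81-fold higher. Endothelium shares SLC2A1 and TJP1, and the vessel markers were higher in CP as given above. The CP count was 3 without CP replicate 2, GZ replicate 1 or GZ replicate 2, and 1 gene was higher in GZ without CP replicate 1. KCNJ10, the potassium channel gene of endfeet, was 2.53 ± 0.45 in CP and 2.82 ± 0.31 in GZ and was not called (adjusted p = 0.391). Differences were also negative for MLC1 (-0.26) and DAG1 (-0.14), and neither was called.

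Profiles of the remaining markers were closest to genes outside the lists. Nearest to SPARCL1 were PCSK6, a proprotein convertase gene, FZD9, a Wnt receptor gene, and ADCY2, an adenylyl cyclase gene, at distances of 0.220 to 0.275. For the 7 neuron markers, the median share of genes closer to SPARCL1 was 8.78% (range 4.04% to 95.8%). That median was 20.7% for pericyte markers, 21.0% for endothelium markers and 32.5% for the 6 other tested astrocyte markers. Those most like SLC1A2 were CHL1, a neural adhesion gene, SORBS2 and BCAT1. Nearest to GLUL were ALMS1, MAT2B and IDH2, and nearest to GFAP were VAT1L, the macrophage receptor gene CD163, and GNL1.

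Among the 29 other astrocyte genes tested, 9 were called higher in CP, against 6 in GZ, with a median difference of 0.19. Their called share was 51.7%, against 45.4% of all tested genes. WIF1, which codes for a secreted Wnt inhibitor, was 10.1-fold higher in CP (1.82 ± 0.30 against -1.52 ± 0.84, limma adjusted p = 7.56e-04), a fold that rests on low GZ values. PLA2G7, a phospholipase gene, and PPP1R3C, a regulator of glycogen synthesis, were 2.84-fold and 1.97-fold higher in CP. ADGRV1, an adhesion receptor gene, was 2.33-fold higher in GZ (-1.22 ± 0.25 SE, adjusted p = 0.00553). Without both libraries numbered 1 the CP count was 5, and without both numbered 2 the GZ count was 3.

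**Figure D4:**
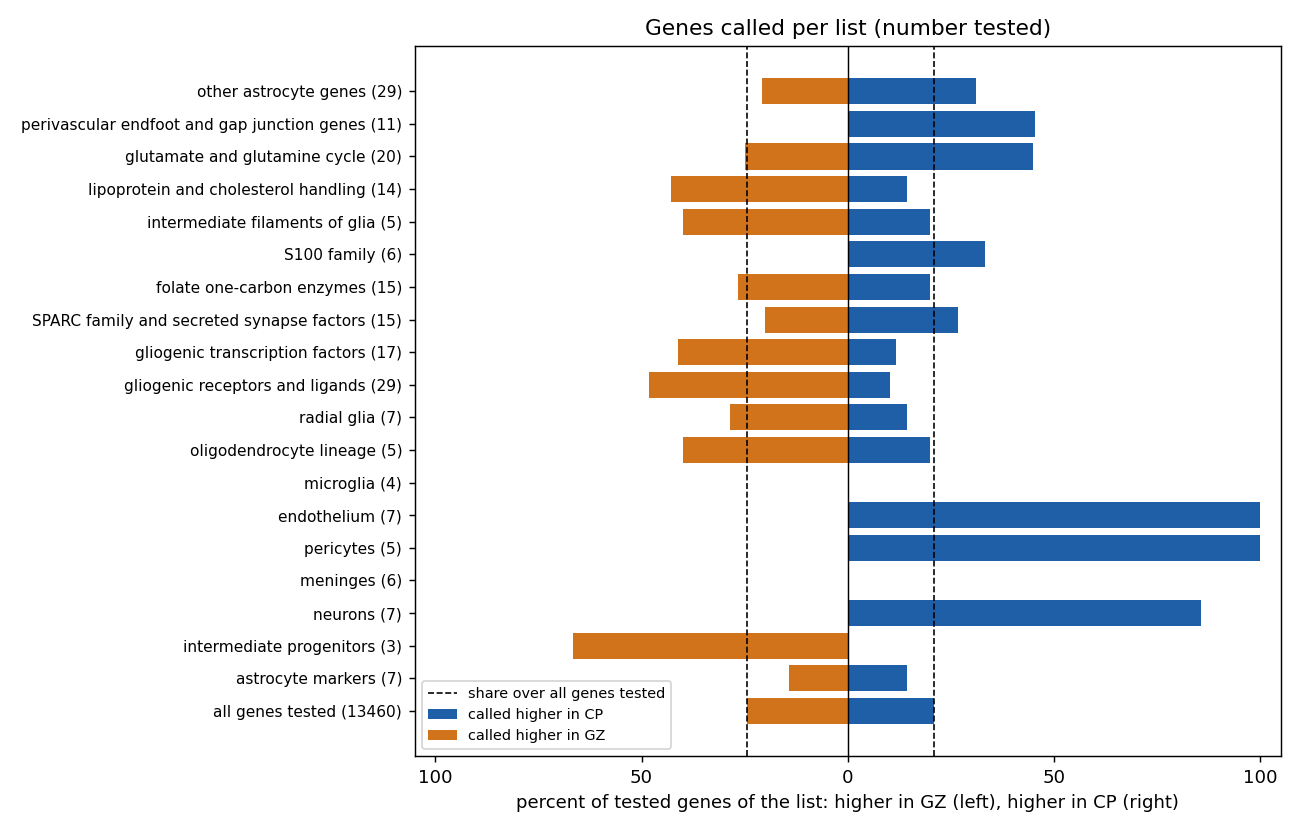
Share of the tested genes of each list that was called higher in CP (blue, right) or in GZ (orange, left), in percent, with the number tested in brackets. Dashed lines mark the share over all 13460 tested genes. All tested vessel markers lie in CP, none of the microglia or meninges markers was called, and the astrocyte markers lie below the dashed line on either side.

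Genes that act on the switch from neuron to astrocyte production were called in both directions. Of 17 tested transcription factor genes, 7 were called higher in GZ, against 2 in CP, with a median difference of -0.29. The shares over all tested genes were 24.5% for GZ and 20.9% for CP. POU3F4 was 3.56-fold and ZBTB20, a repressor active in glial production, 3.19-fold higher in GZ. LHX2 was 2.14-fold higher in CP. NFIA and STAT3, activators of astrocyte genes, were 1.86-fold and 1.34-fold higher in GZ, and both were chosen after their values were seen.

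Of 29 tested genes of receptors, ligands and transducers that act on glial production, 14 were called higher in GZ, against 3 in CP. The median difference was -0.39, and the shares over all tested genes were 24.5% for GZ and 20.9% for CP. DLL1, a Notch ligand gene, was 3.54-fold, NOTCH1 2.59-fold and EGFR 2.30-fold higher in GZ (-1.82 ± 0.21, -1.37 ± 0.16 and -1.20 ± 0.34 SE). NRG1, which codes for neuregulin, was 1.83-fold higher in CP. CNTFR and LIFR, receptors for cytokines that induce GFAP, were 1.53-fold and 1.61-fold higher in GZ, chosen after their values were seen. Without both libraries numbered 2 or both numbered 3 the GZ count was 8 or 9, and without both numbered 1 the CP count was 1. EGFR was not called without CP replicate 2 (-0.92, limma adjusted p = 0.067).

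For the remaining partners of the markers, calls were mixed. In folate and one-carbon metabolism, the pathway of ALDH1L1, 4 of 15 tested genes were called higher in GZ, against 3 in CP. The median difference was -0.04, and the called share of 46.7% was near the 45.4% over all tested genes. TYMS, the thymidylate synthase gene, was 2.16-fold and ALDH1L2, the mitochondrial relative of ALDH1L1, 1.51-fold higher in GZ. Without both libraries numbered 1 the GZ count was 2. ATIC, a purine synthesis gene, was 2.02-fold and MTHFD1L 1.62-fold higher in CP. In the S100 family of calcium-binding proteins with their partners, 2 of 6 tested genes were higher in CP, against 20.9% of all tested genes. They were S100A16 (1.77-fold) and S100A1 (1.70-fold). No gene of that list was higher in GZ in limma, also at an unadjusted p under 0.05, while 1 was without GZ replicate 3. Without both libraries numbered 2 no gene of it was called higher in CP.

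Markers of other glia and progenitors were called in both directions, 3 of 7 for radial glia and 3 of 5 for the oligodendrocyte lineage, against 45.4% of all tested genes. Of 7 tested radial glia markers, PAX6 (1.98-fold) and NES were higher in GZ and HOPX (1.59-fold) was higher in CP. Without CP replicate 3 or GZ replicate 3, 2 of them were higher in CP, and NES was not called under 7 settings. In the oligodendrocyte lineage, MBP (1.82-fold) and OLIG2 (1.47-fold) were higher in GZ and CSPG4, which pericytes share, was 2.22-fold higher in CP. Without CP replicate 3 the GZ count was 1, and OLIG2 was not called (-0.52, limma adjusted p = 0.051). None of 6 tested meninges markers was called in limma (LUM 1.07 ± 0.39 SE, adjusted p = 0.054), and 2 had an unadjusted p under 0.05. With CP replicate 1 or 3 or GZ replicate 2 or 3 left out, 1 or 2 of them were called. LUM reached the call, higher in CP, when CP replicate 1 (1.45) or GZ replicate 3 (1.34) was left out. The ependyma list had FOXJ1 as its tested gene, with means of 3.02 ± 0.93 in CP and 3.17 ± 0.50 in GZ (adjusted p = 0.815).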

How the data were processed

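RNA-seq values were taken from the deposited table of log2 FPKM, which the authors had normalized with cqn (conditional quantile normalization), per the name of the deposited table. No source used here gives the aligner or the counting. Its 6 value columns were matched to samples by title, and 14700 of 22345 gene identifiers (65.8%) had a symbol in the name table supplied.

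Genes with a mean log2 value of at least 0 over the 6 libraries were kept. CP minus GZ was fitted with limma 3.58.1 in R 4.3.3 (empirical Bayes with a mean-variance trend, no pairing), with Benjamini-Hochberg adjustment over 13460 genes. The fit was tested on simulated data. Fold changes are 2 to the power of the log2 difference.

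The markers and the 20 gene lists were chosen with earlier results of these data known. Named genes were all measured markers, the 3 genes most like each marker, and per list the called genes with the largest differences in each direction. Where a list had no call, its gene with the largest difference was named. Other names (TREM2, SLC1A3, KCNJ10, VIM, GJB6, LRP1, NFIA, STAT3, CNTFR and LIFR among them) were chosen after their values were seen. The alternatives were a replicate block, other filters, a pseudocount of 1, other scalings, other variance models and libraries left out. The loops, boundaries and peaks of the series were not used here, because no annotation on their build was used to place the markers.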

Additional observations from a re-analysis of the deposited data

How the results depend on the processing

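SPARCL1 and GLUL kept their direction and their call under all 17 other settings. GFAP, AQP4 and SLC1A2 kept their direction and stayed uncalled under all of them, and the scalings between libraries changed no call of a marker. The count of markers higher in CP was 1, and it ranged from 1 to 2 when 1 library was left out and was 2 without both libraries numbered 2. The count higher in GZ was 1, and 2 without both libraries numbered 1. Leaving out both libraries of a number also moved the counts over all genes, from 2816 to 1716 higher in CP and from 3297 to 1647 higher in GZ for number 1, and to 2025 higher in GZ for number 2. The settings without numbers 2 and 3 were chosen after seeing the data. Differences changed sign for APOE (0.081) and TYROBP (0.041) without both libraries numbered 3. FOXJ1, at -0.15 with all libraries, ranged from -0.64 to 0.28 when 1 library was left out, with a positive sign without CP replicate 3 or GZ replicate 3, and was 0.038 without both numbered 2 and 0.45 without both numbered 3. The cause was not tested. These settings leave 2 libraries in a tissue, and the unknown read depth sets no limit that can be given.

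With the number in the sample titles as a replicate block, 2 markers were higher in CP (GJA1 joined SPARCL1), and 6117 genes were called in place of 6113. Same-numbered libraries had correlations of deviations of -0.38, 0.30 and 0.35, and CP libraries 2 and 3, but not 1, correlated best with their own number. With 3 libraries per tissue, these correlations cannot decide whether the numbers pair the samples. The titles carry the same 3 codes in both tissues, but whether a code marks an animal is not stated in the labels. For that reason the main fit used no block. With the block, the SE fell from 0.30 to 0.18 for AQP4 and from 0.23 to 0.12 for SLC1A2, and neither was called. It rose from 0.086 to 0.092 for GLUL and from 0.23 to 0.26 for APOE.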
